A study of Mus musculus with 4 samples.

Results

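The comparison described here is the genotype by ATV:4D9 interaction in brain microglia, that is, the change that ATV:4D9 made in AppSAA;TfRmu/hu mice minus the change it made in WT;TfRmu/hu mice. It rests on 16 of the 20 mice of the study and on 61129 of its 74758 cells. The 16 mice are those that the deposited annotation assigns to 4 groups of 4, namely WT;TfRmu/hu mice (hereafter WT) with ATV:ISO or with ATV:4D9, and AppSAA;TfRmu/hu mice (hereafter AppSAA) with either antibody. All 16 mice, controls included, were homozygous for the TfRmu/hu allele, in which the apical domain of the human transferrin receptor is knocked into the mouse locus, and the AppSAA mice were also homozygous for the App knock-in. WT mice therefore had an edited transferrin receptor too. ATV:4D9 is a TREM2 antibody with a transferrin receptor binding site in an Fc that carries LALA mutations. The isotype arm is labelled ATV-DNP02 and was read as ATV:ISO. The dose was 10 mg per kg and cells were taken after 24 h, at an age given as 8 months in the labels. The annotation records 1 mouse, a WT mouse given ATV:ISO in pool 4, as female. The mice were run in 4 pools with 1 mouse of a group in each, which gave 4 within-pool changes for a genotype. The labels do not settle whether hippocampus was taken along with cortex, or whether CD45 was part of the sort for CD11b+ cells.

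TREM2 is a lipid receptor on the surface of microglia that signals through the adaptor DAP12, the product of Tyrobp, and the kinase Syk. It is needed for the state that microglia take on around amyloid plaques, called disease-associated microglia or DAM, in which genes of lipid handling, lysosomes and antigen presentation are high and homeostatic genes are low. Amyloid and TREM2 activation can therefore act on the same genes, and the interaction asks, gene by gene, whether a microglial population already exposed to amyloid changed by the same factor as one that was not. An interaction of 0 on the log2 scale means the same factor in both genotypes. A negative value means that the gene rose less, or fell more, in AppSAA mice, and a positive value that it rose more or fell less.

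The UMIs of all cells of a mouse were summed, which gave 17150296 to 102446549 UMIs from 2193 to 6126 cells for each of the 16 mice. Levels are given below as CPM, UMIs scaled to the library size with the TMM factors of edgeR. Values are listed in the order of pools 1 to 4, and where only the genotype is named the first 4 values are with ATV:ISO and the next 4 with ATV:4D9. A level summed over a mouse cannot separate a change within cells from a change in the mix of cell states. The 5 microglial markers chosen as a check (Csf1r, C1qa, Cx3cr1, Aif1 and Fcrls) summed to between 15360.0 and 20960.0 CPM in all 16 mice, and 3 of them were called with a positive interaction. Among markers of other cells, the 5 of B cells summed to 177 to 304 CPM, with 203 to 216 and 177 to 206 CPM in WT and AppSAA mice given ATV:4D9 and 276 to 304 and 230.0 to 269 CPM with ATV:ISO, and those of oligodendrocytes to 15.1 to 45.6 CPM. NK cell markers summed to 1.36 to 1.81 CPM in AppSAA mice given ATV:ISO and to at most 0.614 CPM elsewhere. The 6 of neutrophils summed to 12.8 to 23.8 CPM in WT and 4.48 to 16.6 CPM in AppSAA mice given ATV:4D9 and to 6.18 to 23.1 and 6.02 to 19.1 CPM with ATV:ISO, with 1 of 5 tested markers called negative. The 6 of border macrophages summed to 9.97 to 32.7 CPM with 1 marker called positive, the 5 of monocytes to 4.09 to 13.8 CPM, and the 5 of T cells to at most 0.567 CPM. The monocyte sum was 10.0 to 13.8 CPM in AppSAA mice given ATV:4D9, 4.09 to 10.3 CPM in AppSAA mice given ATV:ISO and 6.22 to 7.38 CPM in WT mice given ATV:4D9, with 1 of its 5 markers called positive. Endothelial markers summed to 37.6 to 52.6 CPM in AppSAA mice given ATV:ISO and to 9.54 to 26.3 CPM in the other 3 groups, with none of 4 tested markers called. No marker of any of these lists was at 0 UMIs over the 16 mice. Sums over all cells of a mouse do not tell which cells carried a marker, so they are no count of other cells. The part of such cells in the results below was not tested. Of 74212 barcode sequences, 543 occurred in more than 1 pool.

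The response to ATV:4D9 differed between the 2 genotypes in many genes. Of 14058 tested genes, 4284 (30.5%) were called for the interaction by edgeR's quasi-likelihood test (Benjamini-Hochberg adjusted p under 0.05), 2377 positive (16.9%) and 1907 negative (13.6%). Large differences were mostly negative, since 358 called genes had an interaction under -1 on the log2 scale and 115 had one above 1. The 4 changes in AppSAA mice did not overlap the 4 changes in WT mice in 3673 genes (26.1%), of which 3170 were called. The response itself was called in 74.6% of genes in WT mice and in 70.7% in AppSAA mice, and of 8708 genes called in both, 8419 moved in the same direction. The split by sign depended on the scaling. With RLE size factors, 1797 genes were positive and 2169 negative, so that 45.3% of the called genes were positive instead of 55.5%. Counted as UMIs per cell, the median gene had an interaction of -0.30, with a median response of 0.80 in WT and 0.48 in AppSAA mice, and 238 genes were positive and 6180 negative. Interactions below are relative to the other genes, whose median was 0.04. The rises and falls given for each genotype are likewise on the CPM scale, and can differ in UMIs per cell. Without a term for the pool 1285 genes were called, without pool 3 there were 2283 and without pool 4 there were 2342. Without the mouse recorded as female 3727 genes were called, of which 3576 were among the 4284 and had the same sign.

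**Figure D1:**
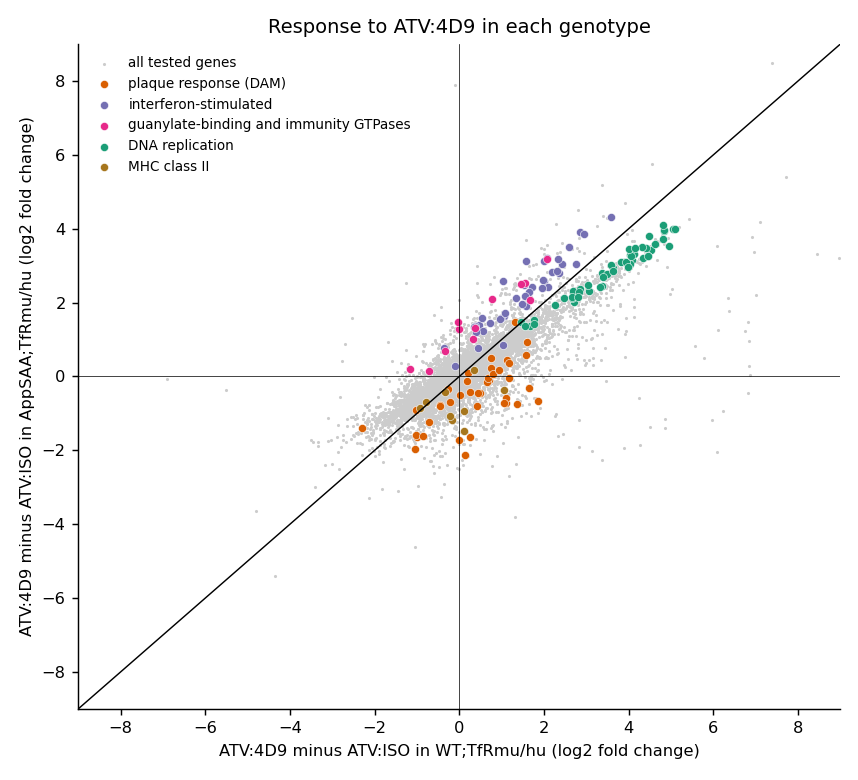
Each point is a tested gene, with its log2 fold change under ATV:4D9 in WT;TfRmu/hu mice on the x axis and in AppSAA;TfRmu/hu mice on the y axis, and colours mark 5 gene lists. The line marks equal change: most DAM genes (median interaction -0.73) and DNA replication genes (-0.73) lie below it, and most interferon-stimulated genes (0.66) lie above it.

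On the CPM scale, most called genes moved in the same direction in both genotypes and differed in size. Of the 1907 negative genes, 1099 (57.6%) rose in both, with a median log2 change of 1.21 in WT and 0.72 in AppSAA mice. A further 344 (18.0%) rose in WT mice and were not called in AppSAA mice, 206 (10.8%) fell in AppSAA mice and were not called in WT mice, and 171 (8.97%) rose in WT and fell in AppSAA mice. Of the 2377 positive genes, 1464 (61.6%) fell in both, by a median of -0.71 in WT and -0.40 in AppSAA mice, and 166 (6.98%) rose in both, by 0.44 and 1.14. A further 429 (18.0%) fell in WT mice and were not called in AppSAA mice. Another 192 (8.08%) rose in AppSAA mice and were not called in WT mice, and 118 (4.96%) fell in WT and rose in AppSAA mice. The genotypes already differed under ATV:ISO, where 51.0% of all tested genes were called, 21.5% higher in AppSAA mice and 29.4% lower. Among the 1907 negative genes 1603 were higher in AppSAA mice under ATV:ISO and 5 were lower, with a median log2 difference of 0.52. With ATV:4D9 565 of the 1907 were higher and 423 lower, and the median was 0.03. Among the 2377 positive genes 72 were higher and 1845 lower under ATV:ISO (median -0.25). With ATV:4D9 741 of the 2377 were higher and 213 lower (median 0.06). Under ATV:4D9, 31.4% of genes were called between the genotypes, and 17.0% of all tested genes were higher and 14.4% lower in AppSAA mice. The same ATV:ISO mice enter the response and the genotype difference, so these values are set side by side and are not independent.

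The target receptor and its adaptor fell in AppSAA mice and not, or less, in WT mice. Trem2 (chromosome 17, 48346401 to 48354147 in GRCm38) stood at 3032, 2812, 2647 and 2497 CPM in the WT mice given ATV:ISO, in the order of pools 1 to 4, and at 2652, 2413, 2156 and 2247 CPM with ATV:4D9. In AppSAA mice it stood at 4907, 5239.7, 4421 and 4078 CPM with ATV:ISO and at 2733, 3203, 2869 and 2675 CPM with ATV:4D9. All 4 AppSAA mice given ATV:ISO were above every other mouse, and the 4 given ATV:4D9 overlapped the WT mice given ATV:ISO. The log2 change was -0.21 in WT and -0.69 in AppSAA mice, an interaction of -0.48 ± 0.08 (SE), adjusted p = 0.000272. Tyrobp stood at 3350.2, 3166, 2745 and 2758 CPM in WT mice given ATV:ISO and at 3469, 2959.6, 2789 and 2867 CPM with ATV:4D9, which overlap. In AppSAA mice it went from 6668, 7241, 5565 and 5666 CPM to 4518, 4899, 4343 and 3977 CPM, with no overlap, and its interaction was -0.51 ± 0.09 (SE), adjusted p = 0.00031. Without a term for the pool the adjusted p of Tyrobp was 0.0538. Of 17 members of a list of TREM2 signalling genes, 9 had a positive and 3 a negative interaction, and the median was 0.18. The positive and negative members numbered 5 and 3 without pool 3, 3 and 2 without a term for the pool, 3 and 1 without cluster 1 of the deposited clustering, and 0 and 6 as UMIs per cell. The negative members were Trem2, Tyrobp and Lat2 (-0.61), a membrane adaptor, and the positive ones included the kinase Syk (0.44), named after its value was seen, and Pik3cd (0.46), a subunit of phosphoinositide 3-kinase. Pik3cd was not called without a term for the pool (adjusted p = 0.174), as UMIs per cell (0.12, adjusted p = 0.288) or without cluster 1 (0.15, adjusted p = 0.217). Tfrc, the transferrin receptor that the ATV binds, stood at 4.82, 4.13, 4.96 and 5.21 CPM in WT mice given ATV:ISO and at 22.2, 20.8, 26.2 and 29.5 CPM with ATV:4D9. It stood at 5.41, 6.79, 6.74 and 7.55 CPM and 25.4, 16.6, 24.8 and 25.5 CPM in the AppSAA mice. Tfrc rose in both genotypes, by 2.37 in WT and 1.79 in AppSAA mice on the log2 scale, and its interaction was -0.58 ± 0.15 (SE), adjusted p = 0.00585, which became 0.0565 without pool 4 and 0.107 without a term for the pool. App itself was not called, with an interaction of 0.02 ± 0.04 (SE) and adjusted p = 0.775.

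Genes of the plaque response rose less, or fell more, in AppSAA mice. Of 40 members of a DAM list, 29 (72.5%) had a negative and 0 a positive interaction, against 13.6% and 16.9% of all tested genes. The median interaction of the list was -0.73, with a median log2 change of 0.46 in WT mice, where 25 members rose and 9 fell, and of -0.48 in AppSAA mice, where 7 rose and 25 fell. The background was 35.6% rising and 39.0% falling in WT mice, and 34.5% and 36.2% in AppSAA mice. The list was chosen with earlier results of these mice known, so its direction is not independent evidence. Lpl, lipoprotein lipase, which frees fatty acids from lipoproteins (chromosome 8, 68880491 to 68907448), stood at 42.7, 93.9, 56.6 and 43.8 CPM in WT mice given ATV:ISO and at 185, 199, 208 and 251 CPM with ATV:4D9. In AppSAA mice Lpl stood at 475, 570.0, 513 and 471 CPM and at 403, 246, 316 and 311 CPM. It rose in all 4 pools of WT mice and fell in all 4 pools of AppSAA mice, and no 2 of the 4 groups overlapped except the WT and AppSAA mice given ATV:4D9. The interaction of Lpl was -2.50 ± 0.26 (SE), adjusted p = 2.82e-06.

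Cst7, which encodes cystatin F, an inhibitor of lysosomal cysteine proteases (chromosome 2, 150570415 to 150578944), stood at 99.1, 99.6, 108 and 96 CPM in WT mice given ATV:ISO and at 282, 207, 267 and 274 CPM with ATV:4D9. In AppSAA mice it went from 1658, 1898, 1566 and 1328 CPM to 816, 1066, 1127 and 829 CPM. The 4 groups did not overlap, with WT mice moving up and AppSAA mice moving down, and the interaction was -2.11 ± 0.15 (SE), adjusted p = 5.81e-08. Baiap2l2, a protein that binds curved membranes, was low in WT mice, at 2.71, 3.05, 4.82 and 3.58 CPM with ATV:ISO and 2.65, 3.04, 5.31 and 4.5 CPM with ATV:4D9. It stood at 63.6, 69.9, 69.2 and 61 CPM in AppSAA mice given ATV:ISO and at 7.41, 18.2, 22.3 and 15.2 CPM with ATV:4D9, so the WT groups overlapped and the AppSAA groups lay apart and above them, and its interaction was -2.25 ± 0.31 (SE), adjusted p = 3.75e-05. Cox6a2, a subunit of cytochrome c oxidase, had an interaction of -1.98 ± 0.23 (SE), with a change of 1.65 in WT and -0.33 in AppSAA mice. Ank, a membrane protein of pyrophosphate transport, changed by 0.25 in WT and fell by 1.63 in AppSAA mice, with an interaction of -1.88. Itgax (CD11c) and Csf1, a growth factor of microglia, had interactions of -1.79 and -1.81, each with a rise in WT (1.06 and 1.10) and a fall in AppSAA mice (-0.73 and -0.71). Clec7a, a receptor for glucans, changed by 0.43 and -0.80, an interaction of -1.22.

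The other genes among the 12 largest negative interactions were not on the DAM list. Psat1, an enzyme of serine synthesis, stood at 15.7, 17.7, 16.2 and 19 CPM in WT mice given ATV:ISO and at 75, 62.4, 80.04 and 82.6 CPM with ATV:4D9. In AppSAA mice Psat1 stood at 66, 79.5, 72.9 and 84.3 CPM and 80.9, 70.8, 82.8 and 83 CPM. The WT mice given ATV:ISO stood below the other 3 groups, which overlapped, and the interaction was -2.05 ± 0.10 (SE), adjusted p = 1.18e-09. Pdcd1, the inhibitory receptor PD-1, had the same order, with 7.98, 5.97, 4.29 and 6.69 CPM and 38, 26.5, 24.1 and 23.4 CPM in WT mice and 37, 43, 29.6 and 31.8 CPM and 51.8, 41.2, 36.1 and 32.9 CPM in AppSAA mice. Its interaction was -1.96 ± 0.16 (SE), adjusted p = 1.52e-07. Sulf2, a sulfatase that trims heparan sulfate, and Gas2l3, which links actin and microtubules, had interactions of -1.97 and -1.89, and Etl4, Pcp4 and Gm1673 had interactions of -2.50, -2.04 and -1.90. All 5 changed upward in every pool of WT mice and downward in every pool of AppSAA mice.

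**Figure D2:**
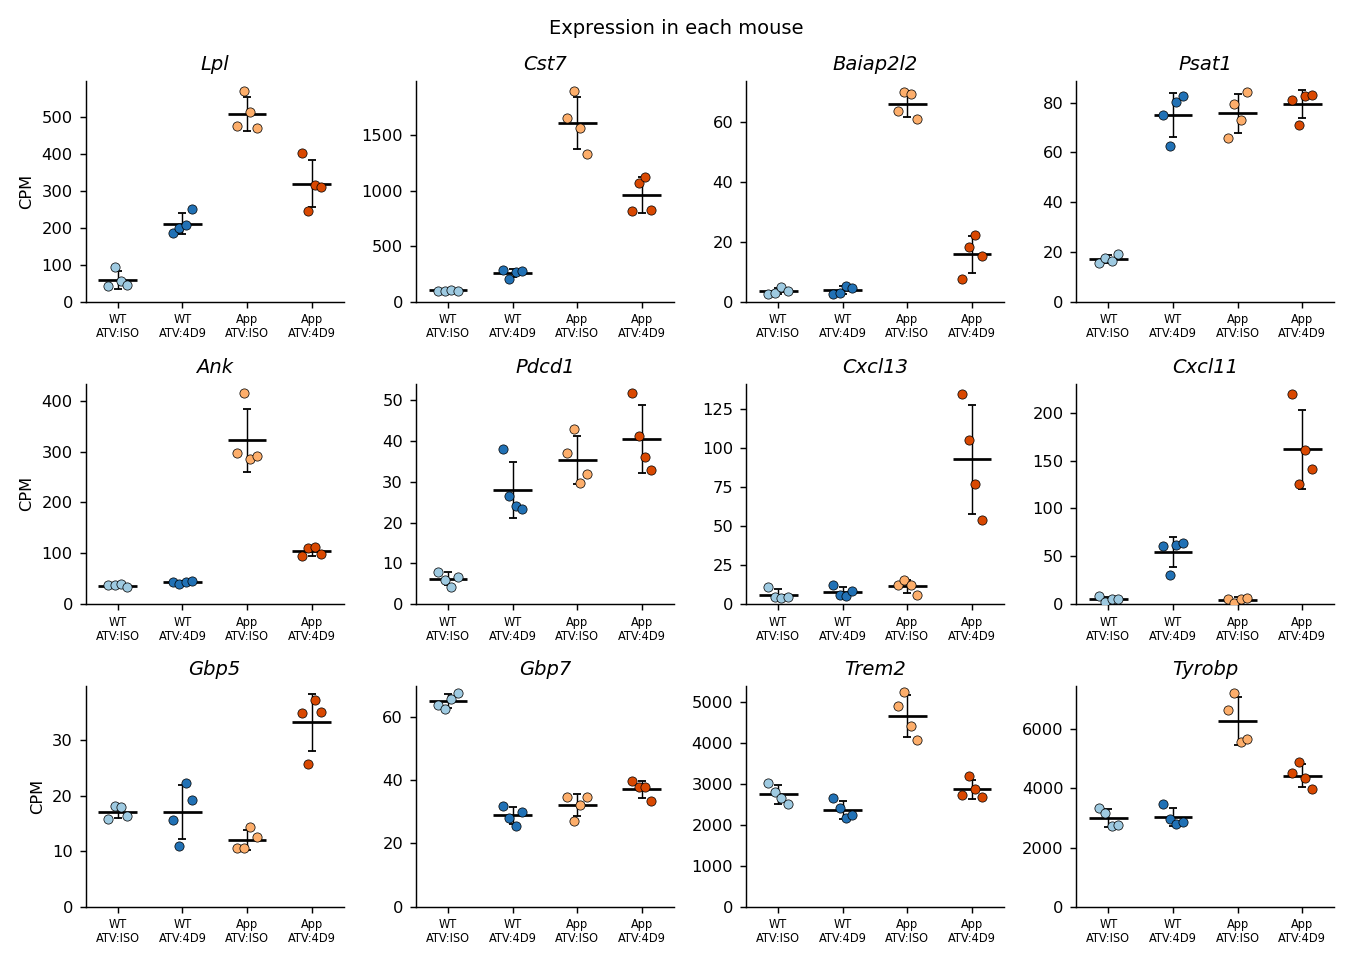
CPM of 12 genes in each of the 16 mice, one point for each mouse, with the mean as a line and the SD as a bar (n = 4 for each group) on linear axes from 0. The panels from Lpl to Pdcd1 show genes with a negative interaction, those from Cxcl13 to Gbp7 genes with a positive one, where Gbp7 falls in WT mice, and the last pair the receptor and its adaptor.

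Called members of the class II and class I antigen presentation lists had opposite signs. Of 9 MHC class II genes, 6 had a negative and 0 a positive interaction (median -0.84), with 2 negative without pool 3, 3 without pool 4, 3 without the cycling cluster and 1 without a term for the pool. Cd74, the class II chaperone, rose by 1.05 in WT mice and changed by -0.38 in AppSAA mice, an interaction of -1.43 ± 0.25 (SE), adjusted p = 0.000391. The AppSAA mice given ATV:ISO spread widely for it, at 668, 996, 1535 and 582 CPM, against 651, 700.0, 902 and 574 CPM with ATV:4D9, and these overlap. H2-Ab1, a class II chain, had an interaction of -1.05 (adjusted p = 0.00454). The calls of H2-Aa (-1.02) and Ciita (-1.58), the class II transactivator, were lost when single mice were left out, with adjusted p of 0.0893 and 0.121 without WT ATV:4D9 replicate 4. MHC class I and immunoproteasome genes went the other way, with 8 of 18 positive and 0 negative (median 0.35), 5 positive without pool 3 or without pool 4, and 0 positive and 2 negative as UMIs per cell. Psmb9, an interferon-inducible proteasome subunit, stood at 98.8, 95.2, 84 and 81.2 CPM and 107, 82, 82.9 and 82.8 CPM in WT mice and at 106, 107, 102 and 90.5 CPM and 160.4, 142, 151 and 124 CPM in AppSAA mice. Only the AppSAA mice given ATV:4D9 stood apart, and the interaction was 0.53 ± 0.08 (SE), adjusted p = 8.62e-05. H2-T23 and Psmb10 had interactions of 0.57 and 0.48. The class I chain H2-K1, named after its value was seen, was not called (-0.006, adjusted p = 0.981). Of 39 genes of the proteasome as a whole, 3 were positive and 3 negative (median -0.02).

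Interferon-stimulated genes rose more in AppSAA mice. Of 40 members, 28 (70.0%) had a positive and 0 a negative interaction (median 0.66). The positive members numbered 15 without pool 3, 18 without pool 4, 13 without the cycling cluster, 13 without a term for the pool and 11 as UMIs per cell. They rose in both genotypes, 38 of 40 in WT mice with a median of 1.56, and 40 of 40 in AppSAA mice with a median of 2.34. The largest interactions on the list were those of Oas2 (1.56) and Oas3 (1.55), sensors of double-stranded RNA with low counts here (means of 3.28 and 3.77 CPM), Ifit3b (1.13) and Irf7 (1.13), a transcription factor of the interferon response. Oas3 was not called without the cycling cluster (adjusted p = 0.0842), without a term for the pool (0.0628), without pool 4 (0.0529) or without cluster 1 (0.11), and Ifit3b was not called without the cycling cluster (0.76, adjusted p = 0.0761), by limma on within-pool changes (0.0629) or without cluster 1 (0.63, adjusted p = 0.246). Irf7 stood at 13.4, 10.7, 10.9 and 10.8 CPM and 83.4, 31.8, 35.5 and 42.3 CPM in WT mice and at 20.1, 15.2, 18.4 and 14.8 CPM and 212, 147, 149 and 105 CPM in AppSAA mice. Both genotypes rose, the AppSAA mice given ATV:4D9 stood above all others, and the interaction was 1.13 ± 0.24 (SE), adjusted p = 0.0015, which was 0.0658 without a term for the pool. Guanylate-binding proteins and immunity-related GTPases, which are induced by interferon gamma and act against vacuolar pathogens, had 8 of 12 positive and 0 negative members (median 1.04). All 12 rose in AppSAA mice, while 7 rose and 3 fell in WT mice. Genes of these families are near-identical neighbours in places, so reads shared by copies may be missing from their counts.

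Gbp5, Gbp7, Gbp2 and Gbp3 lie within 1 stretch of chromosome 3 and were all among the 12 largest positive interactions. Gbp5 stood at 15.9, 18.2, 18 and 16.4 CPM and 15.6, 11, 22.3 and 19.3 CPM in WT mice, which overlap, and at 10.6, 10.6, 14.3 and 12.6 CPM and 35, 25.7, 37.3 and 35.2 CPM in AppSAA mice, which do not. Its interaction was 1.49 ± 0.18 (SE), adjusted p = 8.66e-06. Gbp7 differed, since it fell in WT mice from 64, 62.7, 65.8 and 67.8 CPM to 31.9, 28.2, 25.6 and 29.9 CPM and stood at 34.8, 27.2, 32.2 and 34.6 CPM and 39.9, 37.8, 37.8 and 33.4 CPM in AppSAA mice, an interaction of 1.38 ± 0.09 (SE), adjusted p = 3.17e-08. Gbp2 and Gbp3 rose by 2.10 and 1.27 in AppSAA mice, against changes of 0.77 and -0.02 in WT mice. Ifi209, of the PYHIN family of DNA sensors, and Gm4951 rose by 2.39 and 1.76 in AppSAA mice, against 1.08 and 0.38 in WT mice.

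Promoters were searched for the core of the interferon-stimulated response element (GAAANNGAAA, on both strands, overlapping copies included). The search used RefSeq windows of 300 bases, from 250 before to 50 after the start, in GRCm38.p6. Windows matched 10494 of the 14058 tested genes. The core was in 8 of 8 windows of the GTPase list and in 15 of 29 (51.7%) of the interferon-stimulated list, against 3.24% of all tested genes, 4.71% of genes with a positive and 3.03% of genes with a negative interaction. None of the 9 windows found for the 12 largest negative interactions held it. The match is a description of these letters and not of a bound site. Both lists were made of genes induced by interferon, so their shares are no test of the interaction. The windows of 4 of the named genes are given with the core in capitals, to show where it lies relative to the start (base 251).
Gbp3, chr3:142559794-142560093 (plus strand): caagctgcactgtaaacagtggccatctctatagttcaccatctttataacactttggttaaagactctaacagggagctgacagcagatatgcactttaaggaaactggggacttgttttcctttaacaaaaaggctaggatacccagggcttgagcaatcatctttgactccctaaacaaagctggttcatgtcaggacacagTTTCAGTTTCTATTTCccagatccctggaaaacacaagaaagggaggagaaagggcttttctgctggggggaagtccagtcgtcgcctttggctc
Gbp5, chr3:142496684-142496983 (plus strand): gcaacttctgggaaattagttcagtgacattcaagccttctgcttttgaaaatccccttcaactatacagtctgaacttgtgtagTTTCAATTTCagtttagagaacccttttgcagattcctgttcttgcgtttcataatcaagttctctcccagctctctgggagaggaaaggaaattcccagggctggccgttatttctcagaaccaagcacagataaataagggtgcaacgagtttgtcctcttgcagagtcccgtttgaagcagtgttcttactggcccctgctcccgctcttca
Oas3, chr5:120777610-120777909 (minus strand): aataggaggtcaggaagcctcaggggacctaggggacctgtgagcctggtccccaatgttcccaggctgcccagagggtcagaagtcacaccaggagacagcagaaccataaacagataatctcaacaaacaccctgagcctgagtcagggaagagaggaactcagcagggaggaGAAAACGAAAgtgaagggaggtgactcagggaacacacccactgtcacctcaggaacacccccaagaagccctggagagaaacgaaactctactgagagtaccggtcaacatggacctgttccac
Ifit3b, chr19:34607707-34608006 (plus strand): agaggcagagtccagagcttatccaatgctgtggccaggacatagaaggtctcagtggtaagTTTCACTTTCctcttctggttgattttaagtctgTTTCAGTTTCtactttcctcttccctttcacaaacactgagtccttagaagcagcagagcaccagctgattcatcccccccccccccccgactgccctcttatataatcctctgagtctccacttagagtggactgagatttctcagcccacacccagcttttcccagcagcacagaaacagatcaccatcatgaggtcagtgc

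Single chemokines had interactions of either sign. Cxcl13, which attracts B cells (chromosome 5, 95956951 to 95961068), had the largest positive interaction of the 12. It stood at 11, 4.44, 4.03 and 4.87 CPM and 12.5, 5.53, 5.13 and 8.4 CPM in WT mice, which overlap, and at 12, 15.8, 12.1 and 5.56 CPM and 135, 105, 77 and 54.1 CPM in AppSAA mice, which do not. Its interaction was 2.56 ± 0.47 (SE), adjusted p = 0.000516, and without cluster 5 it was 0.94 and not called (adjusted p = 0.288). Cxcl11, a ligand of CXCR3, rose in both genotypes, from 8.09, 2.56, 5.8 and 5.18 CPM to 61.2, 30.3, 62.3 and 63.7 CPM in WT mice and from 5.38, 1.05, 5.74 and 6.34 CPM to 219.7, 126, 161 and 141 CPM in AppSAA mice. With ATV:4D9 every AppSAA mouse lay above every WT mouse. Its interaction was 1.80 ± 0.37 (SE), adjusted p = 0.00148, and 0.072 without a term for the pool. Ccl7 and Ccl2, ligands of CCR2, had interactions of 1.55 and 1.20. That of Ccl7 was 0.85 and not called without the cycling cluster (adjusted p = 0.0503), nor was it called by limma on within-pool changes (0.0666). Ccl6, a member of the DAM list, went the other way, with 189, 194, 158 and 128 CPM and 177, 167, 146 and 166 CPM in WT mice and 1031, 843, 891 and 628 CPM and 242, 251, 283 and 236 CPM in AppSAA mice. The WT groups overlapped and all 4 AppSAA mice given ATV:ISO lay above those given ATV:4D9. Its interaction was -1.71 ± 0.14 (SE), adjusted p = 2.71e-07. Of 17 chemokines, 5 (29.4%) had a positive and 3 (17.6%) a negative interaction, against 16.9% and 13.6% of all tested genes. The list median was 0.07, against 0.04 over all genes. Il18, a cytokine of the inflammasome, had an interaction of 0.81, and Mif, a macrophage cytokine, one of -1.41.

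DNA replication and mitosis genes, with 1 exception, rose in both genotypes, and most rose less in AppSAA mice. Of 50 DNA replication genes, 50 rose in WT and 50 in AppSAA mice, by a median of 3.86 and 3.03 on the log2 scale. The interaction was negative in 44 (88%) and positive in 0 (median -0.73). Of 57 mitosis genes 42 were negative and 1 positive (median -0.90). The positive one, chosen here after its value was seen, was Pttg1, securin, which fell in WT mice (-0.73) and rose in AppSAA mice (0.30), an interaction of 1.04. Without the cycling cluster 9 mitosis genes were negative and 4 positive. Ung, a uracil glycosylase of DNA repair, stood at 3.05, 1.21, 1.15 and 2.34 CPM and 67.8, 61.4, 57.4 and 54.7 CPM in WT mice and at 3.7, 3.74, 3.56 and 3.82 CPM and 58.3, 42.1, 34.1 and 41.1 CPM in AppSAA mice. The mice given ATV:4D9 lay far above the others and overlapped between genotypes. Its interaction was -1.44 ± 0.20 (SE), adjusted p = 5.19e-05. Chaf1b, a histone chaperone, Pole, a DNA polymerase, and E2f1, a transcription factor of S phase, had interactions of -1.18, -1.18 and -1.13. Cdk1, the kinase that drives mitosis, stood at 5.65, 4.67, 7.17 and 7.93 CPM and 90.4, 64.2, 80.5 and 75 CPM in WT mice and at 15.3, 15.9, 14.9 and 15.5 CPM and 83, 61.7, 57.3 and 73.5 CPM in AppSAA mice. The 2 groups given ATV:4D9 overlapped and the 2 given ATV:ISO did not, and the interaction was -1.43 ± 0.17 (SE), adjusted p = 1.02e-05. Cenpm, Cenpe and Bub1, of the kinetochore and its checkpoint, had interactions of -1.43, -1.38 and -1.16. Without that cluster Cenpm (-0.49) and Bub1 (-0.16) were not called (adjusted p = 0.195 and 0.758). Of 26 cell cycle inhibitors and p53 targets 7 were positive and 4 negative (median 0.14), with 1 and 2 without pool 3, 2 and 4 without pool 4, and 1 and 10 as UMIs per cell. Among the negative ones, Cdkn2a and Cdkn2c had interactions of -2.11 and -1.12, after changes of 2.57 and 2.03 in WT mice and of 0.47 and 0.91 in AppSAA mice.

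An E2F site (TTTCCCGC, TTTGGCGC or TTTCGCGC, on both strands) was in 17 of 42 windows (40.5%) of the DNA replication list and in 6 of 45 (13.3%) of the mitosis list, against 3.72% of all tested genes. It was in 6.67% of windows of genes with a negative and in 1.54% of those with a positive interaction. The AP-1 (TGACTCA or TGAGTCA), NF-kB (GGGNNTTTCC), CLEAR (TCACGTGA) and CRE (TGACGTCA) letters differed by less between the 2 sets, at 3.39% and 3.84%, 1.59% and 1.62%, 2.44% and 2.36%, and 3.07% and 3.37% of the positive and negative windows. The windows of the 2 named mitosis genes that hold an E2F site are given with the site in capitals, for the position of the site.
Cdk1, chr10:69352863-69353162 (minus strand): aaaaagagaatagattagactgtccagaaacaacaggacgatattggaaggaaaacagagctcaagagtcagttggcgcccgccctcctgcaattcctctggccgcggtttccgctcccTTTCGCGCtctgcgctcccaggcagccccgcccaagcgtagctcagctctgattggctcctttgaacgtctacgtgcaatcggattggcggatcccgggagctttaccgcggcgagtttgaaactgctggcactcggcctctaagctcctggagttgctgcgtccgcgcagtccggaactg
Cenpm, chr15:82244287-82244586 (minus strand): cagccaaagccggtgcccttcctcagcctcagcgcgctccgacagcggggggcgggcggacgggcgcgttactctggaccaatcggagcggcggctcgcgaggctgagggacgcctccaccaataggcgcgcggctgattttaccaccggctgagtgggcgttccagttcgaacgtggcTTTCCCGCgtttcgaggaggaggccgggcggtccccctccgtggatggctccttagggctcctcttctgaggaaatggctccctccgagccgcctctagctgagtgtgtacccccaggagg

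Ribosomal protein genes and genes of oxidative phosphorylation, glycolysis and cholesterol synthesis had mostly negative interactions. Of 84 ribosomal protein genes, 80 (95.2%) had a negative and 1 a positive interaction (median -0.50). In WT mice 77 of them rose, with a median of 0.55, and in AppSAA mice 23 rose and 12 fell, with a median of 0.05. The positive one, chosen after its value was seen, was Rpl7l1. Rpsa, of the small subunit, stood at 1088, 979, 866 and 876 CPM and 3139, 2432, 2681 and 2766 CPM in WT mice and at 1955, 2222, 1723 and 1781 CPM and 3802, 2694, 2751 and 2726 CPM in AppSAA mice. Both genotypes rose without overlap, from a higher start in AppSAA mice, and the interaction was -0.91 ± 0.11 (SE), adjusted p = 1.23e-05. Rpl41 and Rps2 had interactions of -0.86 and -0.84. Of 84 nuclear genes of oxidative phosphorylation, 51 were negative and 0 positive (median -0.31), among them Ndufa1 of complex I (-0.85) and Cox6a1 of complex IV (-0.69). All 13 mitochondrially encoded genes were negative (median -0.39), and 13 rose in WT mice and 2 in AppSAA mice. mt-Nd1 of complex I had an interaction of -0.51 ± 0.08 (SE), adjusted p = 0.000101, which was 0.279 without a term for the pool. Without that term 44 ribosomal, 9 nuclear and 1 mitochondrial genes of these lists, and 8 of glycolysis, were negative.

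Glycolysis and pentose phosphate genes had 16 negative and 2 positive members of 27 (median -0.51). Pkm, pyruvate kinase, stood at 227, 195, 184 and 177 CPM and 960.4, 607, 749 and 726 CPM in WT mice and at 479.7, 476, 441 and 403 CPM and 1128, 696, 770.0 and 711 CPM in AppSAA mice. It was higher with ATV:4D9 in every pool, and AppSAA mice given ATV:ISO lay above WT mice given it. Its interaction was -1.10 ± 0.12 (SE), adjusted p = 3.42e-06, and Tpi1 and Pgk1, of the same pathway, both had -1.05. The positive members, named after their values were seen, were Hk2 and Pfkfb4. Cholesterol synthesis genes had 17 negative and 0 positive members of 24 (median -0.48), with 15 rising in WT mice and 5 rising and 8 falling in AppSAA mice. Idi1, an isomerase of the isoprenoid steps, stood at 6.04, 6.55, 5.31 and 5.34 CPM and 19.8, 19.6, 18.5 and 15.1 CPM in WT mice and at 14.1, 20.02, 14.1 and 14.1 CPM and 23.1, 20.4, 17.3 and 16.5 CPM in AppSAA mice. The WT mice given ATV:ISO stood alone below the other 3 groups, which overlapped, and the interaction was -1.34 ± 0.13 (SE), adjusted p = 1.67e-06. Sqle, squalene epoxidase, Stard4, a cholesterol carrier, and Cyp51, a demethylase of the pathway, had interactions of -1.74, -1.60 and -1.30. Fatty acid synthesis had 6 negative members of 14 and 0 positive, with Acaca, acetyl-CoA carboxylase, at -1.55, Fasn, fatty acid synthase, at -1.11 and Scd2, a desaturase, at -1.18. Slc7a1, a carrier of basic amino acids, and Sdf2l1, of the endoplasmic reticulum, had interactions of -0.77 and -0.86. Of 35 ATF4 and amino acid genes, the list of Slc7a1, 5 were positive and 7 negative (median -0.07). The chaperones and unfolded protein response genes of the endoplasmic reticulum, the list of Sdf2l1, had 3 positive and 13 negative of 34 (median -0.09). Over all tested genes 16.9% were positive and 13.6% negative. The negative share was 38.2% in the chaperones, while the ATF4 list lay nearer to the shares over all genes. The ATF4 counts were 1 positive and 4 negative without pool 3 or without a term for the pool, and 0 and 24 as UMIs per cell. Citric acid cycle genes had 2 positive and 2 negative members of 24, and fatty acid oxidation genes 2 and 4 of 25. These compare with 16.9% positive and 13.6% negative over all tested genes, so neither list was mostly negative.

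Interactions were positive for a larger share of several receptor families and of homeostatic genes than over all genes. Of 8 Fc receptor genes 5 were positive and 0 negative (median 0.62). Fcgr1, the high-affinity receptor for IgG, stood at 406, 362, 329 and 354 CPM and 469.6, 343, 321 and 366 CPM in WT mice, which overlap, and at 356, 301, 289 and 303 CPM and 653, 506, 528 and 444 CPM in AppSAA mice, which do not. Its interaction was 0.73 ± 0.08 (SE), adjusted p = 5.94e-06. Fcgr4, Fcgr2b and Fcgr3 had interactions of 0.70, 0.73 and 0.54, and the last pair fell in both genotypes. Of 6 tested Ms4a genes, which encode membrane proteins of myeloid cells, 4 were positive and 0 negative (median 1.10). Ms4a6c stood at 51, 52.7, 42 and 49.6 CPM and 65.3, 52.1, 48.1 and 54.6 CPM in WT mice and at 49.7, 42.2, 40.4 and 36.2 CPM and 122, 100.4, 108 and 84.8 CPM in AppSAA mice. The AppSAA mice given ATV:4D9 were above all others, and the interaction was 1.14 ± 0.11 (SE), adjusted p = 1.35e-06. Ms4a4c, Ms4a6b and Ms4a6d had interactions of 1.30, 1.07 and 0.69.

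Of 19 Toll-like receptor pathway genes 8 were positive and 1 negative (Cd180, named after its value was seen), with the adaptor Myd88 at 0.80 and Tlr3, a sensor of double-stranded RNA, at 0.68. Purinergic genes had 5 positive members of 10 and 0 negative, among them Adora3 (0.45), Entpd1 (0.43) and P2rx7 (0.42). The positive purinergic genes numbered 1 without cluster 1 (median 0.11) and 0 as UMIs per cell. Of 22 homeostatic genes 11 were positive and 0 negative (median 0.21), and 20 fell in WT and 17 in AppSAA mice. The positive ones numbered 5 without pool 3 and 5 without pool 4, and 3 without a term for the pool, where 2 purinergic and 5 Toll-like receptor genes were positive. Tmem119, a microglial membrane protein, stood at 1246, 1161, 1147 and 1327 CPM and 1056, 1044, 986 and 1057 CPM in WT mice, with no overlap, and at 903, 619, 751 and 806 CPM and 877, 879.6, 809 and 860.3 CPM in AppSAA mice, with overlap. Its interaction was 0.39 ± 0.09 (SE), adjusted p = 0.00365, and 0.0541 without pool 3. On the scale of UMIs per cell the medians of the homeostatic (-0.13), Toll-like receptor (-0.12), TREM2 signalling (-0.16) and transcription factor (-0.06) lists were below 0, while relative to the median gene they were 0.17, 0.18, 0.13 and 0.24.

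Transcription factors of myeloid cells were mostly positive where called, though the balance depended on the setting. In the main fit 17 of 30 (56.7%) were positive and 3 (10.0%) negative, against 16.9% and 13.6% of all tested genes. Without pool 3 or without pool 4, 10 were positive. The positive and negative members numbered 6 and 3 without a term for the pool, 4 and 0 without cluster 1, and 2 and 10 as UMIs per cell. Kdm5b, a histone demethylase on this list, stood at 31.5, 44.3, 38.4 and 34.8 CPM and 4.12, 5.89, 4.89 and 5.08 CPM in WT mice and at 29.4, 28, 29.7 and 27.7 CPM and 6.3, 11.9, 10.6 and 9.07 CPM in AppSAA mice. It fell in both genotypes and less so in AppSAA mice, with an interaction of 1.26 ± 0.16 (SE), adjusted p = 1.75e-05. Pirb, an inhibitory receptor for MHC class I, and Tcp11l2 did likewise, with interactions of 1.26 and 1.57 after falls of 2.26 and 3.34 in WT mice. The negative factors included Hif1a (-0.88), the regulator of the response to low oxygen, and Bhlhe40 (-1.35). Of 38 lysosomal genes 16 were negative and 10 positive, where the positive ones numbered 1 without pool 3, 2 without pool 4, 6 with RLE size factors and 0 as UMIs per cell. Gusb, a glucuronidase, Cd68 and Cd63, membrane proteins of lysosomes, had interactions of -1.01, -0.80 and -0.77, while the cholesterol exporter Abca1 had 0.81. Lilrb4a, an inhibitory receptor, had an interaction of -1.67, and Nfkbie, an inhibitor of NF-kB, one of 0.82. The heat shock genes Hspa1b (1.97) and Hspa1a (1.49) were called, but their within-pool changes overlapped between genotypes and the adjusted p was 0.0569 and 0.066 without WT ATV:ISO replicate 4.

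Of the further lists, some leaned negative and others were mixed or nearer to the shares over all genes. Interactions were mostly negative where they were called in the mitochondrial ribosome with 78 genes (0 positive, 16 negative, median -0.07), in MYC targets and ribosome biogenesis with 45 genes (1 positive, 10 negative, median -0.13), and in the endoplasmic reticulum chaperones with 34 genes (3 positive, 13 negative, median -0.09). The same held for tubulins and other cytoskeletal genes, with 33 genes (1 positive, 13 negative, median -0.18). The negative share was 39.4% in the cytoskeleton and 38.2% in the chaperones, against 13.6% of all tested genes. Mixed lists were the proton pump of lysosomes with 19 genes (2 positive, 5 negative, median -0.05), phagocytic and scavenger receptors with 33 genes (7 positive, 7 negative, median -0.05) and the NF-kB pathway with 26 genes (9 positive, 4 negative, median 0.19). The NF-kB counts were 4 positive and 2 negative without pool 3, 4 and 3 without pool 4, 4 and 5 without the cycling cluster, 3 and 2 without a term for the pool, and 2 and 9 as UMIs per cell (median -0.15). Without a term for the pool the negative members numbered 1 in the mitochondrial ribosome, 2 in MYC targets, 3 in the chaperones and 6 in the cytoskeleton. In the same order they numbered 10, 4, 9 and 9 without pool 3, and 10, 4, 8 and 8 without pool 4. Heat shock genes (24 tested) had a median of -0.01 and histone genes (74 tested) of -0.11, and of 17 complement genes 2 were positive and 2 negative.

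**Figure D3:**
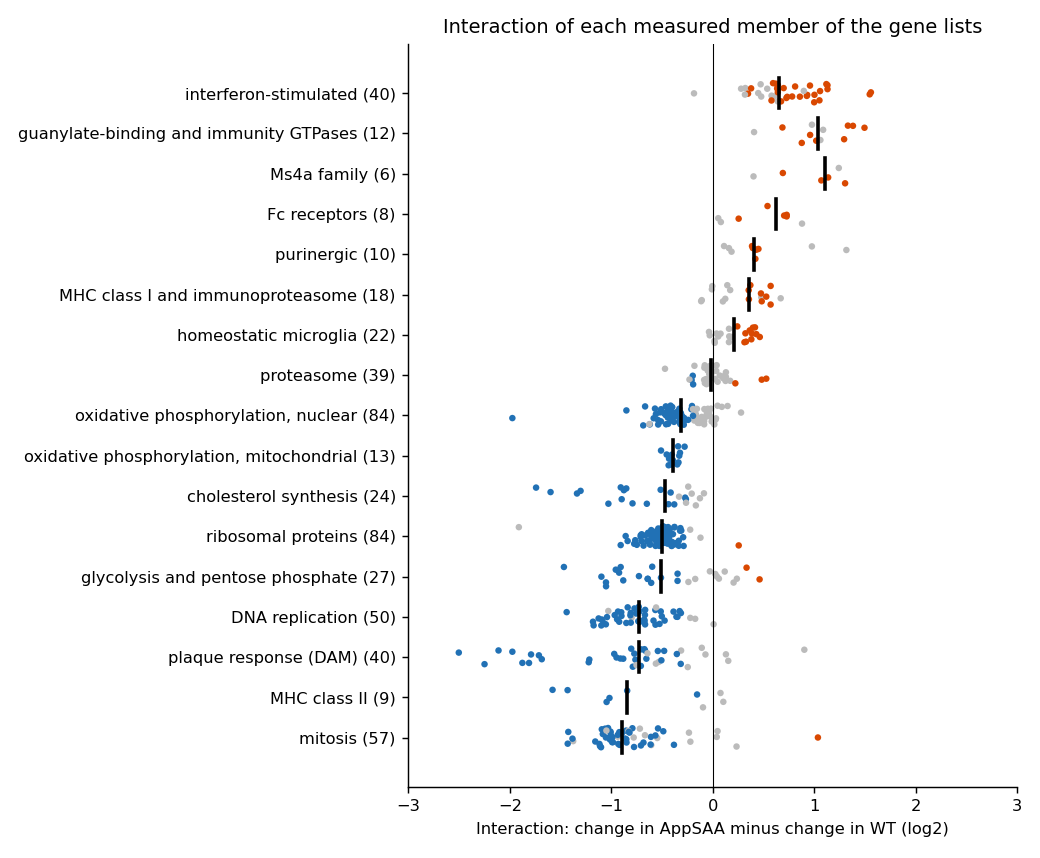
Each point is 1 tested member of a gene list (number of members in brackets), placed by its interaction on the log2 scale, in orange where called positive, in blue where called negative and in grey where not called, and the bar is the list's median. Only a part of the lists is shown, and they are not sorted by median. The interferon-stimulated genes (median 0.66) are at the top, the Ms4a (1.10) and GTPase (1.04) medians are higher, and the mitosis genes (-0.90) are at the bottom. The proteasome genes (-0.02) lie near 0.

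The cells also carry a deposited clustering. Clusters 0 and 3 held more of the homeostatic list than the other cells, cluster 1 was highest in the DAM list, cluster 4 in DNA replication and mitosis and cluster 5 in interferon-stimulated genes. Since the clusters were built from the same cells, their shares are given without a test. Cluster 1 held 33.5% to 44.6% of cells of AppSAA mice given ATV:ISO and 9.24% to 16.4% with ATV:4D9, against 0.814% to 2.52% and 0.331% to 0.465% in WT mice. Cluster 4 went from 0.243% to 0.435% up to 36.3% to 45.7% in WT mice, and from 0.779% to 1.21% up to 18.4% to 25.3% in AppSAA mice. Cluster 5 held 3.33% to 5.61% of cells of WT mice given ATV:4D9 and 18.9% to 28.6% of AppSAA mice given it. Cluster 2 held 44.7% to 51.7% of cells of WT mice and 31.2% to 41.8% of AppSAA mice given ATV:4D9, against 1.04% to 1.60% and 1.97% to 2.81% with ATV:ISO. The homeostatic clusters 0 and 3 held 95.2% to 97.1% of cells of WT mice and 49.9% to 61.9% of AppSAA mice given ATV:ISO, and 5.52% to 10.1% and 2.65% to 10.9% with ATV:4D9. Under ATV:4D9 the ranges of the genotypes overlapped for the homeostatic clusters and not for clusters 1, 2, 4 and 5.

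**Figure D4:**
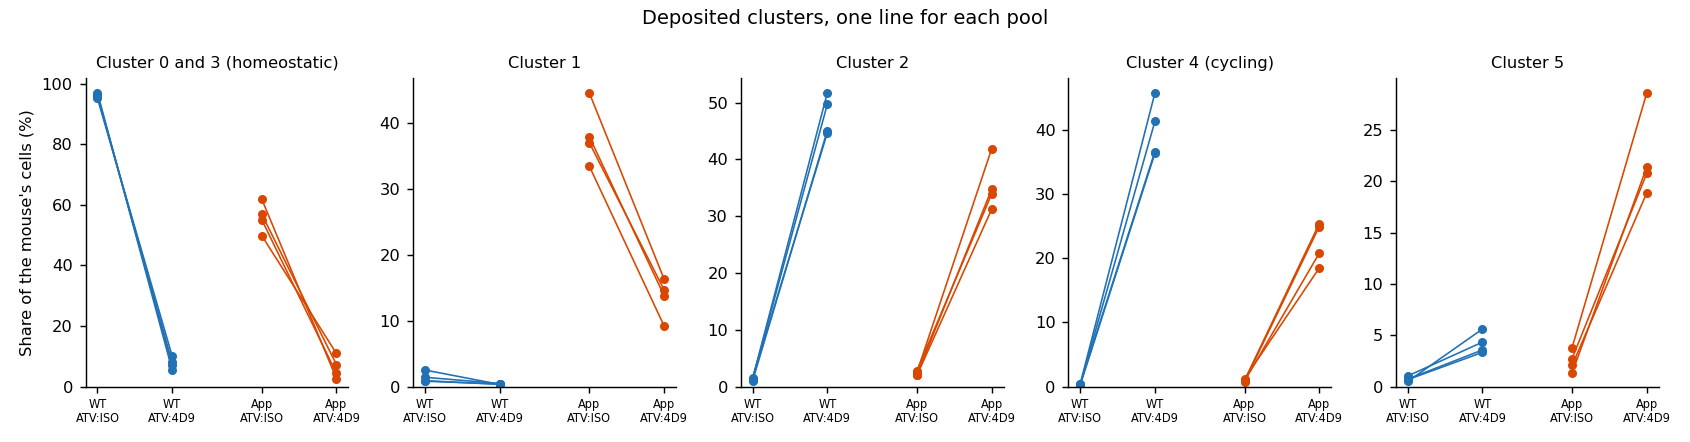
Share of each mouse's cells in the deposited clusters, in percent on linear axes that differ between panels, with blue lines for the 4 pools of WT;TfRmu/hu mice and orange lines for the 4 pools of AppSAA;TfRmu/hu mice. Cluster 4 reaches 36.3% to 45.7% in WT and 18.4% to 25.3% in AppSAA mice under ATV:4D9, and cluster 5 reaches 3.33% to 5.61% and 18.9% to 28.6%.

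Leaving out cluster 1, which was added once the results were known, left 1128 called genes, 475 positive and 653 negative, of which 909 were among the 4284 and 905 of these had the same sign. Since cluster 1 was itself highest in the DAM list and held few cells of WT mice, leaving it out lowers that list in AppSAA mice by construction and is no test of it. The median interaction of the DAM list went from -0.73 to -0.05, with 6 of 40 members called negative. That of MHC class II went to -0.04, of ribosomal proteins to -0.05, of nuclear oxidative phosphorylation to -0.02, of glycolysis to 0.04, of cholesterol synthesis to -0.03 and of homeostatic genes to -0.04. The interferon-stimulated list had 0.59 with 14 positive members, the GTPases 0.80 with 8, the Ms4a genes 0.83, the DNA replication genes -0.89 and the mitosis genes -1.37. Among single genes the interaction of Lpl was -1.18 and still called (adjusted p = 0.00614), that of Cst7 was -0.34 and not called (adjusted p = 0.272), that of Trem2 was -0.08 and not called (adjusted p = 0.536), and that of Cxcl13 was 3.36. Without the cycling cluster 4, the mitosis median was -0.20 and the DNA replication median -0.58. Without cluster 5, added in the same way, the interferon-stimulated median was 0.54 and that of the GTPases 0.93. Cluster 4 was highest in the mitosis and DNA replication lists and cluster 5 in the interferon-stimulated list. Leaving them out is therefore likewise no test of those lists.

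**Figure D5:**
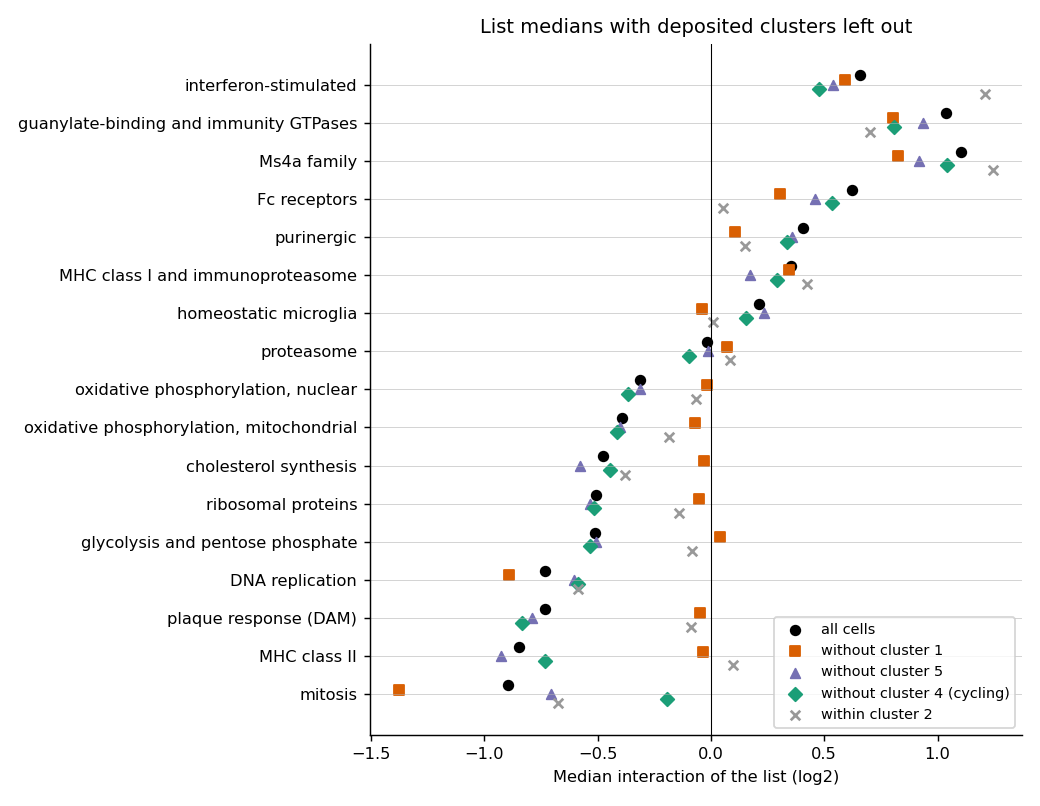
Median interaction (log2) of each gene list over all cells, with deposited cluster 1, 4 or 5 left out, and within cluster 2. The medians of the DAM, MHC class II, ribosomal, oxidative phosphorylation and cholesterol lists lie between -0.07 and -0.02 without cluster 1, while those of interferon-stimulated genes (0.59) and DNA replication genes (-0.89) do not.

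Tested within clusters, on sums of fewer cells, few genes were called, which does not show that the others did not differ. Over the homeostatic clusters 0 and 3, with 105 to 3378 cells for each mouse, 23 of 12545 tested genes (0.183%) were called by the same edgeR test, 7 positive and 16 negative, and 1291 had an unadjusted p under 0.05. Those called included Ccl6 (-0.55), Fcgr2b (0.46) and Fcgr3 (0.35). Of the 23, 18 were also called over all cells, 17 of them with the same sign. The sign differed for Camk2n1 (-0.52 within these clusters and 0.33 over all cells), named after its values were seen. Within cluster 2, with 23 to 2186 cells, 54 of 9618 (0.561%) were called, 38 positive and 16 negative, and 945 had an unadjusted p under 0.05. Of the 54, 43 were also called over all cells with the same sign. Of these, Isg15 (2.98), Irf7 (2.97), Ms4a6c (1.24), Cxcl10 (1.32) and Trim30a (0.94) were positive and Pcp4 (-2.64), Ccl6 (-1.08), Psat1 (-0.999), Scd2 (-0.94) and Pcna (-0.66) negative, all named after their values were seen. The median interaction of the interferon-stimulated list within cluster 2 was 1.21, with 14 of 36 tested members called positive, and that of the DAM list was -0.09. Within the homeostatic clusters 0 of 39 tested interferon-stimulated members were called (median 0.36). Of the GTPases, 0 of 8 tested members were called within cluster 2 and 0 of 11 within the homeostatic clusters. WT mice given ATV:ISO had as few as 23 cells in cluster 2, so fewer reads stand behind its fit. Clusters 1, 4 and 5 could not be fitted, since at least 1 group had under 3 mice with 20 cells. Xist, the RNA of the inactive X chromosome, was also called within both sets of clusters, and the mouse recorded as female held 1495 CPM of it against at most 7.91 CPM in any other.

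The changes in UMIs per cell were also compared between the genotypes, and their difference passed the test with means per mouse (-0.39, exact permutation p = 0.0286) and not with medians, which are the values given here. The median UMIs per cell were 6859.0 to 8173.5 in WT mice given ATV:ISO and 13479.0 to 17290.0 with ATV:4D9, and 8444.5 to 9883.5 and 13560.0 to 16475.0 in AppSAA mice. The 4 within-pool log2 changes were 1.10, 0.91, 0.98 and 1.08 in WT mice and 0.96, 0.56, 0.68 and 0.72 in AppSAA mice. The means were 1.02 ± 0.09 and 0.73 ± 0.17 (SD, n = 4), a difference of -0.29, and the 2-sided exact permutation test gave p = 0.0571 over 70 assignments, where the smallest it can give is 0.0286. The AppSAA change was below the WT change in 4 of 4 pools, a pairing that this test does not use. Only the AppSAA change of pool 1 lay within the range of the WT changes.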

How the data were processed

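Single-cell RNA was measured in microglia sorted from mouse brain, with the mice of a pool told apart by CellPlex tags. The values are counts: per the submitters' notes reads were processed with Cell Ranger 6.1.1 and mm10, and the authors filtered and clustered the cells in Seurat and deposited UMI counts per gene and cell with an annotation of mouse, pool, group and cluster. Groups were taken from that annotation.

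The matrix held 19737 genes. Counts were summed over the cells of each mouse and tested with edgeR 4.0.16 (R 4.3.3) by its quasi-likelihood test with group and pool as terms, over all 20 mice (the fifth group, given 4D9 without the ATV, shares the estimate of the spread), after filterByExpr (14058 genes) and TMM, with Benjamini-Hochberg adjustment at 0.05. Every adjusted p in the text is from this fit or the named alternative of it. The study's own summed test used limma. Mice of 1 pool deviated together from their group means (r = 0.194 to 0.607 over 24 pairs of groups), so the pool number pairs the mice and is kept as a block. The code of the test was also run on simulated counts in which few genes were changed. These differ from the data here, so the run does not show how many calls are false. Within clusters, mice with under 20 cells were left out and 3 mice were needed in each group. The 20 mice are separate animals. All deposited cells were kept, 7233 of them outside 1000 to 25000 UMIs, no doublet caller was run, and how doublets were treated before deposit is not given in the sources used here.

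Genes were named by rule: Trem2, Tyrobp, Tfrc and App, the 12 largest interactions of each sign among called genes with a mean of 10 CPM or more and within-pool changes that do not overlap, and up to 4 called genes with the largest interactions of each list. The text names a part of these, some items are not reported here, and it says where a gene lies outside the rule. The members and lists were chosen with earlier results of these data known. Alternatives were other scaling (RLE, UMIs per cell), DESeq2 1.42.0, limma 3.58.1 with voom or on within-pool changes, no filter, no block, 16 mice, cells of 1000 to 25000 UMIs, thinned totals, each mouse or pool left out, and clusters left out, of which clusters 1 and 5 were added after the data had been seen. Promoter windows are from RefSeq (GRCm38.p6) and gene positions from the GENCODE annotation of that build.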

Additional observations from a re-analysis of the deposited data

Results flagged for a closer look

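The response to ATV:4D9 differed between the genotypes by the test of the interaction itself in 2377 genes with a positive and 1907 with a negative value. In 176 called genes the level went up in 4 of 4 pools of WT mice and down in 4 of 4 pools of AppSAA mice, among them Lpl, Cst7, Itgax, Csf1, Acaca and Scd2. In 148 called genes it went down in 4 of 4 pools of WT mice and up in 4 of 4 of AppSAA mice, among them Abca1 (-0.67 and 0.14 on the log2 scale), Ms4a6b (-0.50 and 0.57), Il18 (-0.31 and 0.49), Myd88 (-0.61 and 0.18) and Tlr3 (-0.12 and 0.56). The directions in both sets are on the CPM scale and relative to the other genes. Counted as UMIs per cell, the median gene rose by 0.80 in WT and by 0.48 in AppSAA mice. Directions on that scale were not counted.

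Among 60 sets of 4 values examined, 3 held a value far from the other 3 by Dixon's criterion, which chance exceeds in about 1 of 20 sets. Tcp11l2 changed by -2.44 on the log2 scale in pool 1 of the AppSAA mice and by -1.57, -1.61 and -1.46 in the other pools. Cox6a2 changed by 0.70 in pool 2 of the WT mice against 1.91 to 2.07 in the other 3. Gm1673 changed by -1.99 in pool 1 of the AppSAA mice against -1.10 to -0.93 in the others.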

How the results depend on the processing

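Of 3300 values of 100 named genes over the alternatives, 3176 kept their direction and their side of the threshold, 109 kept the direction and lost the call, and 15 changed sign. The interaction was called in 4284 genes. Without the pool as a block, which ignores the pairing, 1285 were called (533 positive, 752 negative), all among the 4284 with the same sign. Without cluster 1 there were 1128 (475 positive, 653 negative), and 2683 by limma on within-pool changes (1370 positive). Leaving out 1 pool or 1 mouse gave 2283 to 4826 calls, of which 861 (without pool 4) to 2660 were positive, with 894 without pool 3 and 1462 without AppSAA ATV:4D9 replicate 4. The positive calls numbered 1402 with no filter on low counts, 1462 without the cycling cluster, 1439 at thinned totals and 238 as UMIs per cell, where 6180 were negative. The difference in UMIs per cell was -0.39 when means replaced medians, with a 2-sided exact permutation p of 0.0286, the smallest possible.

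App, which was not called, went from 0.02 to -0.0196 with RLE size factors, -0.0193 with DESeq2, -0.0345 with no filter, -0.0339 without the cycling cluster, -0.0415 at thinned totals, -0.322 as UMIs per cell (adjusted p = 0.00786 by edgeR, where the median of all genes was -0.30) and -0.00225 without cluster 5, and ranged from -0.0357 to 0.0504 with 1 mouse or pool left out. Without cluster 1 the sign changed for Tyrobp (0.10), Tmem119 (-0.0503), H2-Aa (0.0814), Clec7a (0.119) and Bhlhe40 (0.28). Calls were lost without the pool as a block for Tyrobp, Tfrc, Cxcl11, Pik3cd, Tmem119, Oas3, Irf7, Ciita, H2-Ab1, H2-Aa, Psmb10, Hspa1b, Hspa1a, mt-Nd1, Entpd1 and P2rx7, as UMIs per cell for Pik3cd, Tmem119, H2-T23, Psmb9, Psmb10, Fcgr4, Fcgr3, Adora3, Entpd1 and P2rx7, by limma on within-pool changes for Tfrc, Ccl7, Tmem119, Ifit3b, Ciita, Hspa1b and Hspa1a, and without the cycling cluster for Ccl7, Oas3, Ifit3b, Ciita, H2-Aa, Cenpm and Bub1. Without cluster 1 the call was lost in 38 of the 100 genes beside the 5 that changed sign, among them Trem2, Cst7, Csf1 (-0.45, adjusted p = 0.116), Ank (-0.36, adjusted p = 0.22), Cox6a2 (-0.32, adjusted p = 0.424) and Cd74 (-0.29, adjusted p = 0.685). As UMIs per cell there were 0 positive and 5 negative homeostatic genes, 2 and 8 of the Toll-like receptor list, 2 and 1 Fc receptor genes, 0 and 0 purinergic genes, 8 and 0 GTPases and 4 and 0 Ms4a genes. The cause of these changes was not tested. Clusters 1, 4 and 5 could not be fitted on their own, nor cluster 2 at 50 cells or more. Depth limits the genes of low counts and the fit within cluster 2.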

Other observations

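The mouse recorded as female, a WT mouse given ATV:ISO in pool 4, had 1495 CPM of Xist. The other 4 mice of pool 4, recorded as male, had 6.51 to 7.91 CPM, which is 0.436% to 0.529% of that level, and the 15 mice of the other pools had 0 to 0.348 CPM. Haemoglobin transcripts of 4 genes summed to 19980 UMIs (483.6 CPM) in the AppSAA mouse given ATV:4D9 in pool 3 and to 0 to 90 UMIs in the other 15 mice. Hbb-bs had an interaction of 7.996 with an adjusted p of 0.0837 by edgeR's quasi-likelihood test.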
